A study of Mus musculus with 4 samples.

Results

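Heat shock proteins and folding chaperones were taken as the genes whose symbol names an HSP70 or HSP110 protein, an HSP90 protein, a small heat shock protein, HSP60 or HSP10, a J-domain protein, a subunit of the TRiC/CCT chaperonin or a BAG protein, and 82 of the 56004 gene rows met this rule. By compartment and family the 82 members fell into 2 cytosolic HSP90 genes, 8 cytosolic HSP70 and HSP110 genes, 9 TRiC/CCT subunits, 6 BAG genes, 8 small heat shock protein genes, 13 ER chaperone genes, 10 mitochondrial chaperone genes and 26 other J-domain genes. The libraries came from mouse Kupffer cells, the macrophages resident in the liver, which had received exosomes for 48 h. The PRL-3 group (2 libraries) received exosomes of MC38-PRL-3 cells and the VT group (2 libraries) received exosomes of MC38-VT cells as the control, MC38 being a mouse colon carcinoma line. The labels do not expand VT, give an amount of 10 ug beside the MC38-VT exosomes and none beside the MC38-PRL-3 exosomes, so that a difference in dose cannot be told apart from the source, and hold no group without exosomes, so all 4 libraries share exposure to carcinoma exosomes. They call the libraries of a group biological replicates without saying whether these were separate cultures or animals, and the p-values below therefore measure the spread between these libraries alone.

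Chaperones bind unfolded or partly folded proteins and release them in cycles of ATP binding and hydrolysis. HSP70 proteins receive their clients from J-domain proteins and are reset by nucleotide exchange factors such as HSP110 and BAG proteins, HSP90 takes over later folding steps, TRiC/CCT encloses actin and tubulin in a chamber, and the ER and the mitochondrial matrix hold an HSP70, an HSP90 relative or an HSP60 of their own. Unfolded protein in the cytosol activates heat shock factor 1, which binds heat shock elements in front of the inducible genes, whereas unfolded protein in the ER activates Atf6 and Xbp1, which act through ER stress response elements.

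Levels are given as FPKM (fragments per kilobase and per 1e6 fragments), a unit inferred from the values, which may be compared between genes because the length of the transcript is divided out. Each difference is the PRL-3 mean less the VT mean of log2(FPKM + 1), with the standard error (SE) of limma, a linear model fitted to 12193 genes with an FPKM of at least 1 in at least 2 libraries, and this logarithm understates the difference of weakly expressed genes. The fitted depth was 17.2 to 18.7 in units of 1e6 fragments per library. PRL-3 replicate 1 stood apart, since the SD of its log2 ratios to the other libraries was 0.40 to 0.41, against 0.31 to 0.37 for the pairs without it. Of 12 markers of resident Kupffer cells, 6 (Clec4f, Timd4, Vsig4, Marco, C6 and Cd163) were listed at 0 in every library and 1 passed the filter, whereas all 7 general macrophage markers were expressed, so the libraries had the markers of macrophages and lacked defining markers of resident Kupffer cells. Markers of hepatocytes, endothelial cells, lymphocytes, neutrophils and carcinoma epithelium summed to at most 0.53 FPKM for each list in any library.

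The chaperones were abundantly expressed in both groups and none passed the test for a difference between them. Of the 82 members, 65 passed the filter, 26 had a mean FPKM of at least 50 and 18 a mean of at least 100. The other 17 stayed below 1 FPKM in all 4 libraries, with a highest single value of 0.41. Together the 82 members took 0.939% and 0.961% of the summed FPKM of the PRL-3 libraries and 0.98% and 1.03% of that of the VT libraries. The TRiC/CCT subunits made up the largest part of the members' sum (28.0% to 29.5% over the libraries), followed by the ER chaperones (17.1% to 20.3%). The cytosolic HSP90 pair (13.5% to 16.5%) and the mitochondrial chaperones (13.5% to 14.7%) came next, in an order that differed between libraries.

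**Figure D1:**
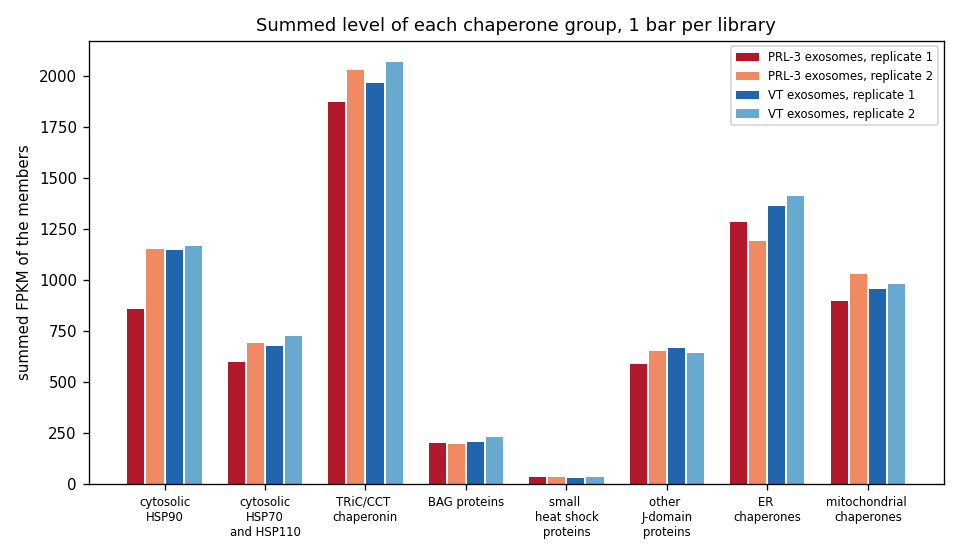
Summed FPKM of the members of each chaperone group, with 1 bar for each of the 4 libraries and a linear axis from 0. The red bar of PRL-3 replicate 1 is the shortest of the 4 for the cytosolic HSP90 pair (859, against 1146 to 1168 in the others), and for the ER chaperones both PRL-3 bars (1284 and 1192) are below both VT bars (1362 and 1409).

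Over all genes 6 of 12193, or 0.0492%, passed a limma adjusted p of 0.05, and 0 of the 65 tested members did. At an unadjusted p under 0.05 there were 5 of 65 members (7.69%), against 9.51% of all genes tested, so the share among the members was near that of the background. Of these, 2 were higher (3.08%, against 5.66% of all genes) and 3 lower (4.62%, against 3.85%). The 5 were the ER genes Hsp90b1, Dnajb11 and Dnajb9, the mitochondrial gene Dnaja3 and the nuclear gene Dnajc9, with limma adjusted p values of 0.49 to 0.52. Both PRL-3 values were under both VT values for 18 members (27.7%, against 18.0% of all genes tested) and above them for 10 (15.4%, against 24.3%). The mean was lower in PRL-3 for 41 of 65 members, or 63.1%, against 46.6% of all genes tested. The median log2 difference of the tested members was -0.06, against 0.02 over all genes tested, and it was -0.01 without PRL-3 replicate 1. The share also differed with level. Of the 2151 genes with a mean FPKM of at least 50, 58.5% had a lower mean in PRL-3, and of the 26 members at that level 80.8% did. Both PRL-3 values were under both VT values for 26.9% of these 26 members, near the 24.2% of the 2151 genes. Both were above for 7.69% of these members, against 17.5% of the 2151 genes.

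PRL-3 replicate 1 held the lowest of the 4 values for 29 of the 65 tested members (44.6%), whereas it held the lowest for 34.2% of all genes tested. VT replicate 2 held the highest value for 23 members (35.4%, against 21.2% of all genes). When PRL-3 replicate 1 was left out, the remaining PRL-3 library was below both VT libraries for 23 members (35.4%, against 30.1% of all genes) and above both for 20 (30.8%, against 44.0%). Without PRL-3 replicate 2 the numbers were 36 below (55.4%, against 39.5%) and 20 above (30.8%, against 39.6%), and 19 members (29.2%) had an unadjusted p under 0.05, against 21.0% of all genes in that fit and 9.51% with all 4 libraries. In either fit 0 members passed the adjusted p.

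**Figure D2:**
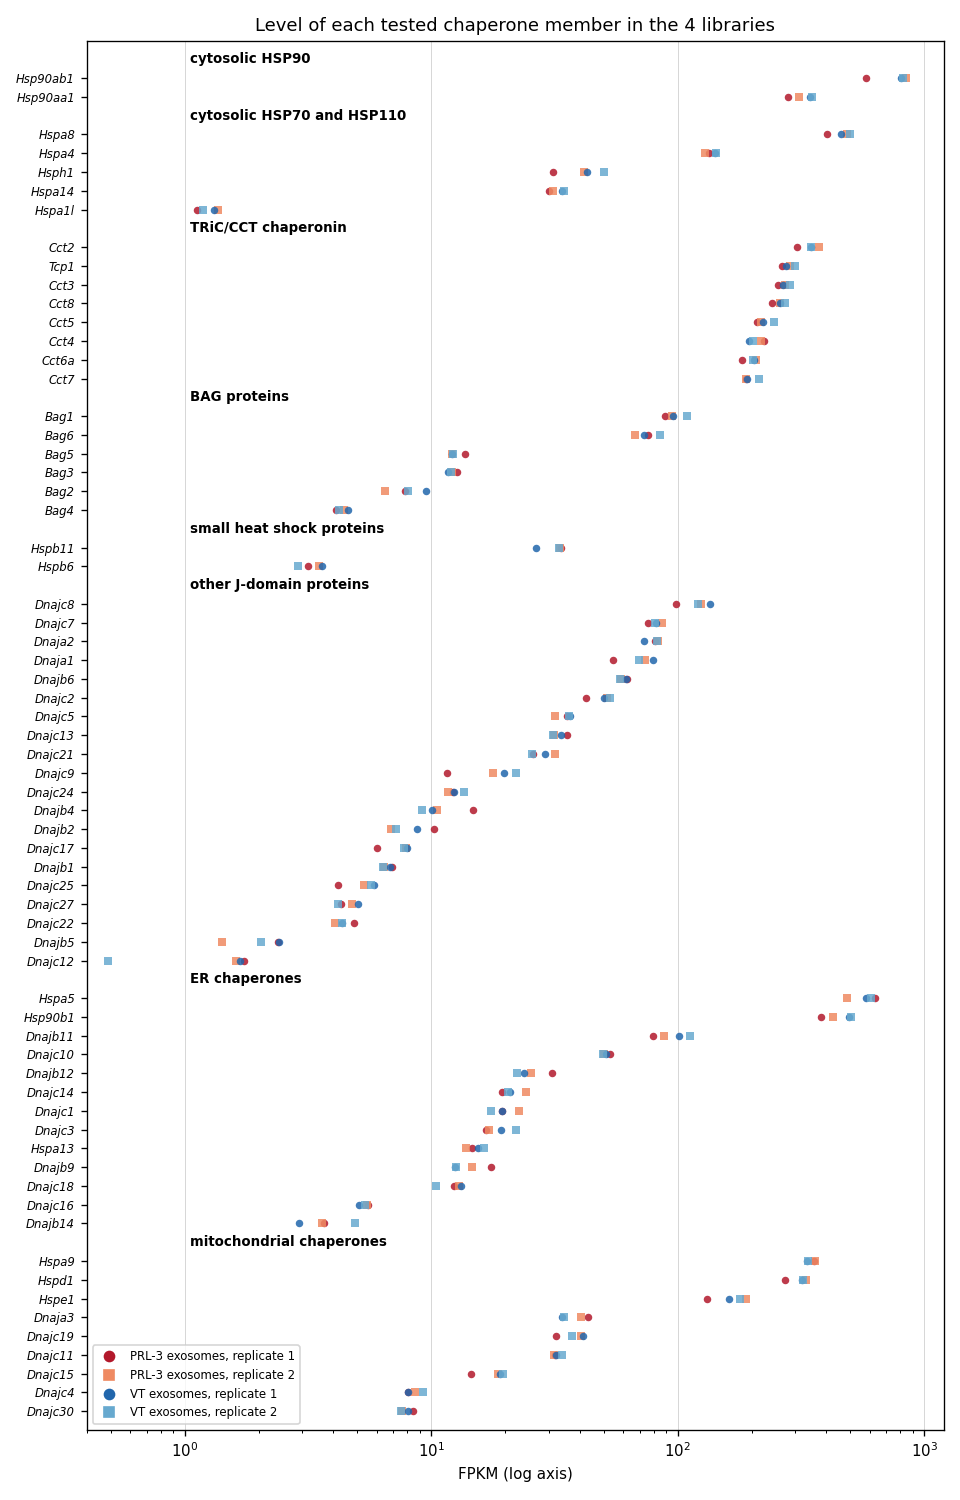
FPKM of the 65 tested members in each library on a log axis, grouped by compartment and family and ordered by mean within each group, with circles for replicate 1 and squares for replicate 2. Most members differ little between the 4 libraries compared with the differences between genes, and the dark red circle of PRL-3 replicate 1 lies at the left for Hsp90ab1, Hspa8, Hsph1, Hspe1 and Dnajc9.

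The inducible HSP70 genes were nearly silent. Hspa1a and Hspa1b encode the stress-induced cytosolic HSP70. Hspa1a was listed at 0 in 3 libraries and at 0.02 FPKM in VT replicate 2. Hspa1b was at 0.02 and 0.11 with PRL-3 exosomes and at 0.02 and 0.08 with VT exosomes, so the groups overlapped. Both genes lie on chromosome 17 and are near-identical copies, with 1915 of 1923 aligned coding bases the same (99.6%), and their reads could have been divided between them in either way. How reads that match both copies were treated is not given, so such reads may also have been left out and the values may be too low. Of the 250 bases before their starts, 247 are identical. Hspb1, the small heat shock protein HSP27, was listed at 0 in 3 libraries and at 0.21 in PRL-3 replicate 2. An exact match to a longer heat shock element of 3 units, described below, was not found in the 250 bases before these 3 genes. Elements with a mismatched letter were not searched, so a longer element that is imperfect may be present. The stretches before their starts are shown because they hold the letters of a short heat shock element. They are RefSeq sequences of GRCm38.p6 written 5′ to 3′ on the strand of the gene, for Hspa1a at chr17:34972157-34972286 (minus strand), Hspa1b at chr17:34959239-34959368 (minus strand) and Hspb1 at chr5:135887789-135887858 (plus strand), upstream of the annotated transcripts, and the capitals mark the fixed letters of the heat shock element GAANNTTC.
Hspa1a: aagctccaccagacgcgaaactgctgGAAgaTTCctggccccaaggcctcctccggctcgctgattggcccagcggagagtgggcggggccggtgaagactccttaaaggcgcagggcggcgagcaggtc
Hspa1b: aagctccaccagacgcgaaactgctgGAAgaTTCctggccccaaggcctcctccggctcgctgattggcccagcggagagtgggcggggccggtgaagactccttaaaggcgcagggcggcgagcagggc
Hspb1: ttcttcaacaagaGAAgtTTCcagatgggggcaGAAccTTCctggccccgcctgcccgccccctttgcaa

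GAANNTTC reads the same on both strands. It was searched in the 250 bases before the RefSeq start, which was at hand for 67 of the 82 members, and was found in 12 of them (17.9%), against 7.73% of all 27025 genes with such a sequence. The 12 were Cct2, Hspa1a, Hspa1b, Hspd1, Hspe1, Dnaja1, Dnajb6, Dnajc27, Dnaja4, Hspb6, Hspb1 and Hspb3. They are not all separate, since Hspd1 and Hspe1 share the same site and Hspa1a and Hspa1b are near-identical copies. Members without such a sequence, among them Hspa8, Hsp90aa1, Hsp90ab1 and Hspa9, were not searched, so their absence from the 12 says nothing about their promoters. A match describes these letters only. The levels of the 12 ranged from nearly silent (Hspa1a, Hspa1b, Hspb1, Hspb3 and Dnaja4, all at most 0.21 FPKM in any library) to a mean of 343 FPKM for Cct2 and 311 for Hspd1. Hsf1, which encodes heat shock factor 1, was at 18.31 and 20.06 FPKM with PRL-3 exosomes and at 18.79 and 18.88 with VT exosomes (log2 difference 0.02, SE 0.11), with the VT values inside the PRL-3 range. Hsf2 was at 11.99 and 11.59 against 9.84 and 9.77 (log2 difference 0.24, SE 0.11, limma adjusted p = 0.56), without overlap, and Hsf4 and Hsf5 stayed at or below 0.32 FPKM.

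The constitutive cytosolic chaperones were among the strongest members and mostly lower in PRL-3 replicate 1. Hsp90ab1, the constitutive HSP90 and the member of highest mean, was at 578.68 and 842.02 FPKM with PRL-3 exosomes and at 803.96 and 816.60 with VT exosomes. The PRL-3 libraries lay on either side of the VT values. The log2 difference was -0.21 (SE 0.19), and 0.06 without PRL-3 replicate 1, which thus set its sign. Hsp90aa1, the inducible HSP90, was at 280.05 and 308.99 against 342.34 and 351.83, without overlap (log2 difference -0.24, SE 0.11, limma adjusted p = 0.56), and its difference was -0.17 without PRL-3 replicate 1. The ratio of Hsp90aa1 to Hsp90ab1 was 0.484 and 0.367 with PRL-3 exosomes and 0.426 and 0.431 with VT exosomes.

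Hspa8, the constitutive HSP70, was at 401.91 and 487.37 FPKM with PRL-3 exosomes and at 457.49 and 497.79 with VT exosomes. The groups overlapped, and the log2 difference of -0.11 (SE 0.13) was 0.03 without PRL-3 replicate 1. Hsph1, the inducible HSP110 that resets HSP70, was at 31.30 and 41.61 against 43.00 and 50.07. It had the most negative difference of the cytosolic HSP70 and HSP110 genes (-0.35, SE 0.16, limma adjusted p = 0.56), with both PRL-3 values below both VT values and a difference of -0.15 without PRL-3 replicate 1. Hspa4, its constitutive relative, was at 133.93 and 129.32 against 141.91 and 143.55 (log2 difference -0.12, SE 0.10). Hspa14, an HSP70 that works with a J-domain protein at the ribosome, was at 29.92 and 31.13 against 33.89 and 34.69 (log2 difference -0.16, SE 0.10). All 5 tested genes of this group had a lower mean in PRL-3, against 46.6% of all genes tested, but 4 of 5 did when each library was scaled to the same sum and 3 of 5 without PRL-3 replicate 1. Hspa4 and Hspa14 differed by little between replicates and their differences were -0.14 without PRL-3 replicate 1 in both cases.

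The co-chaperones that serve HSP90 and HSP70 were examined as a companion list of 18 genes outside the rule, all of them expressed. Of these 18, 15 had a lower mean in PRL-3 (83.3%, against 46.6% of all genes tested) and 7 (38.9%) had both PRL-3 values under both VT values, against 18.0% of all genes tested. For all genes with a mean FPKM of at least 50 these shares were 58.5% and 24.2%. By limma 0 of the 18 were called at an adjusted p of 0.05 and 2 (11.1%, near the 9.51% of all genes) had an unadjusted p under 0.05. Of the 18, 0 had both PRL-3 libraries above. The median log2 difference was -0.18, and it was -0.05 without PRL-3 replicate 1 and -0.31 without PRL-3 replicate 2. Ahsa1, the activator of the HSP90 ATPase, was at 51.30 and 74.37 against 84.05 and 89.17 (log2 difference -0.48, SE 0.18, limma adjusted p = 0.51). Nudc was at 111.89 and 133.32 against 150.06 and 163.47 (-0.36, SE 0.13, limma adjusted p = 0.51). In both genes PRL-3 replicate 1 was the lowest library.

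Of the 9 TRiC/CCT subunits, 8 were expressed at closely similar levels and Cct6b, the testis form of subunit 6, was at most 0.07 FPKM. The strongest of the 8 was 1.67 to 1.98 times the weakest within a library. Cct2 was at 304.03 and 374.43 FPKM with PRL-3 exosomes and at 348.44 and 346.43 with VT exosomes. Tcp1, the first subunit, was at 264.16 and 285.79 against 275.75 and 299.56. Cct3 was at 256.00 and 271.88 against 268.17 and 286.05, and Cct8 at 241.57 and 260.42 against 258.72 and 273.48. In all 4 of these genes the groups overlapped and PRL-3 replicate 1 was the lowest library. The log2 differences of the 8 subunits ranged from -0.13 to 0.15 with a median of -0.07. A lower mean in PRL-3 was found for 7 of 8, against 46.6% of all genes tested. It was found for 58.5% of genes with a mean FPKM of at least 50, a level that all 8 subunits reached. Without PRL-3 replicate 1 it was found for 5 of 8, against 42.5% of all genes. Cct4 was the exception, at 223.96 and 217.50 against 194.20 and 202.39 (log2 difference 0.15, SE 0.10, limma adjusted p = 0.66). It was named after its values were seen. Prefoldin, the complex that hands actin and tubulin to TRiC/CCT, showed 4 of 6 subunits with a lower mean (66.7%, against 46.6% of all genes tested). The other 2, Pfdn4 and Vbp1, had a higher mean. Of the 6, 1 had an unadjusted limma p under 0.05 (16.7%, against 9.51% of all genes tested) and 0 were called (against 0.0492%).

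Among the BAG genes, whose products release nucleotide from HSP70, Bag1 and Bag6 led in level. Bag1 was at 88.79 and 95.07 FPKM with PRL-3 exosomes and at 95.53 and 108.90 with VT exosomes, without overlap but by a margin smaller than the gap between replicates (log2 difference -0.15, SE 0.11). Bag6, which guards newly made tail-anchored proteins, was at 75.70 and 66.90 against 73.21 and 84.67, with overlap. Bag3, the member induced by proteotoxic stress that links HSP70 to small heat shock proteins and autophagy, was at 12.69 and 12.10 against 11.69 and 12.07, and Bag5 at 13.65 and 12.15 against 12.13 and 12.21. The log2 differences of Bag3 (0.06, SE 0.11) and Bag5 (0.08, SE 0.12) were within their standard errors. The range over the 6 BAG genes was -0.26 to 0.08.

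Of the 8 small heat shock protein genes, 2 passed the filter. Hspb11, which also serves transport in cilia, was at 33.61 and 33.33 FPKM with PRL-3 exosomes and at 26.62 and 33.12 with VT exosomes. Its groups did not overlap, but VT replicate 2 was within 0.5 FPKM of the PRL-3 values, and the difference was 0.01 without VT replicate 1. Hspb6 was at 3.17 and 3.50 against 3.61 and 2.88, with overlap. Hspb7 stayed at 0.26 to 0.36 FPKM and Hspb8 at 0.2 to 0.34 FPKM over the 4 libraries. Hspb2 was listed at 0 in every library, as was the J-domain gene Dnajb8, both named here because they alone had no value above 0.

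The other J-domain genes held no common direction, with a lower mean in PRL-3 for 11 of 20 tested and a median log2 difference of -0.01. Dnajc8, a J-domain protein of the spliceosome and the strongest of them, was at 98.50 and 124.80 FPKM with PRL-3 exosomes and at 134.67 and 120.99 with VT exosomes. Dnajc7 was at 75.56 and 86.54 against 81.27 and 80.88. Dnaja2 was at 80.64 and 83.38 against 73.09 and 82.70, and Dnaja1, a main cytosolic partner of Hspa8, was at 54.84 and 73.87 against 79.27 and 69.33. The groups overlapped for all 4 genes. Dnajb1, the heat-inducible HSP40, was at 6.93 and 6.46 against 6.77 and 6.40, with a log2 difference of 0.02 (SE 0.13) and a 95% interval of -0.29 to 0.33.

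Dnajc9 was the J-domain gene outside the ER and mitochondria with an unadjusted p under 0.05. Its product is a chaperone of histones H3 and H4, and the gene lies at chr14:20384638-20388910 (GRCm38). It was at 11.59 and 17.87 FPKM with PRL-3 exosomes and at 19.64 and 22.05 with VT exosomes. Both PRL-3 values were lower, but the gap between the PRL-3 replicates exceeded the gap between the groups. The log2 difference was -0.50 (SE 0.20, limma adjusted p = 0.52), and it was -0.21 without PRL-3 replicate 1 and -0.79 without PRL-3 replicate 2.

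Among the ER chaperones, Hsp90b1, Dnajb11, Dnajc3 and Hspa13 were lower in both PRL-3 libraries, Dnajb9, Dnajb12, Dnajc1 and Dnajc16 were higher in both, and the other 5 of 13 overlapped. Each direction held 30.8% of the 13, against 18.0% of all genes tested below and 24.3% above, so the share above was near the background. None passed the limma adjusted p. Hsp90b1 encodes GRP94, the HSP90 of the ER, and lies at chr10:86690209-86705509 (GRCm38). It was at 381.93 and 426.48 FPKM with PRL-3 exosomes and at 496.29 and 506.60 with VT exosomes. The gap between the groups was larger than the gap within either, at 80.6% of the VT mean (log2 difference -0.31, SE 0.11, limma adjusted p = 0.51). Dnajb11 encodes ERdj3, a soluble partner of BiP, and lies at chr16:22857845-22879634. It was at 79.28 and 87.94 against 101.04 and 112.30, or 78.4% of the VT mean (log2 difference -0.35, SE 0.11, limma adjusted p = 0.49). Leaving out PRL-3 replicate 1 left a difference of -0.23 for Hsp90b1 and -0.27 for Dnajb11, so both kept their sign without that library.

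Dnajb9 encodes ERdj4, a J-domain partner of BiP that serves in ER stress signalling and the disposal of misfolded proteins, and lies at chr12:44205559-44210326. It was higher in both PRL-3 libraries, with 17.45 and 14.59 FPKM with PRL-3 exosomes and 12.54 and 12.59 with VT exosomes (log2 difference 0.32, SE 0.13, limma adjusted p = 0.51). The difference was 0.20 without PRL-3 replicate 1. Hspa5 encodes BiP, the HSP70 of the ER and its most abundant member here. It was at 629.79 and 486.80 against 580.65 and 608.48, so the PRL-3 replicates enclosed the VT values. Its log2 difference of -0.10 (SE 0.15) was -0.29 without PRL-3 replicate 1 and 0.08 without PRL-3 replicate 2. The ratio of Hspa5 to Hsp90b1 was 1.65 in PRL-3 replicate 1 and 1.14 to 1.20 in the other 3 libraries. Dnajc10, the ER reductase ERdj5, was at 53.27 and 50.42 against 51.24 and 49.83, with a log2 difference of 0.04 (SE 0.10).

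**Figure D3:**
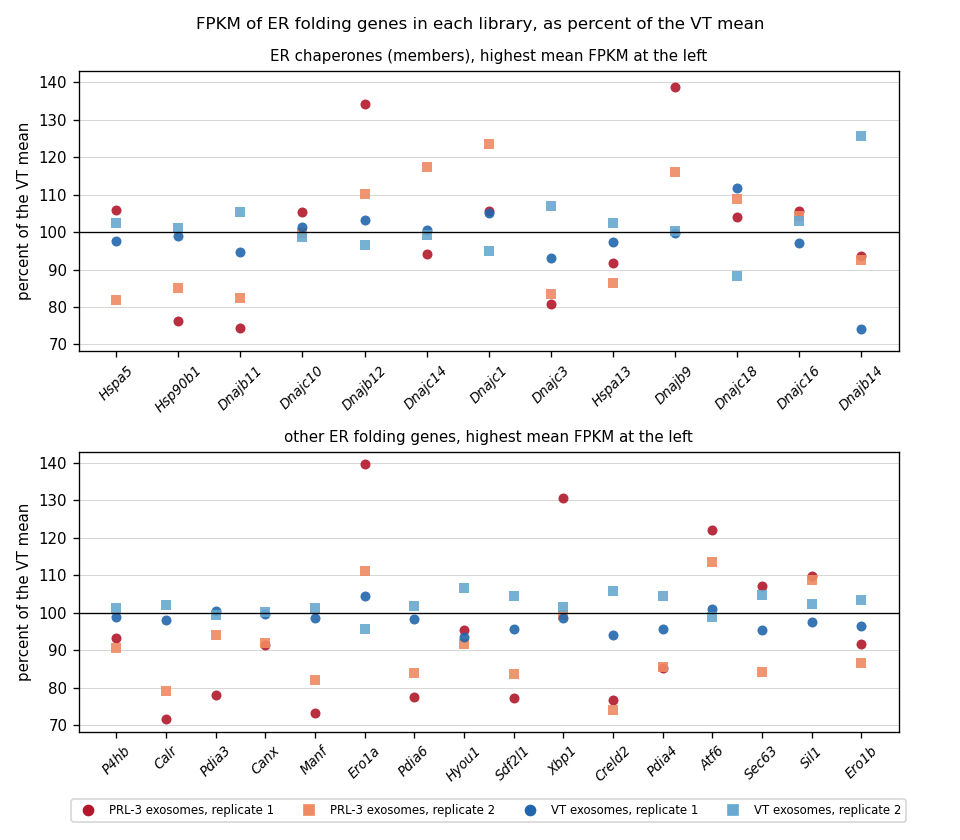
FPKM in each library as percent of the VT mean of the gene, for the 13 ER chaperones (upper panel) and 16 other ER folding genes (lower panel), with genes ordered by mean FPKM from the left. Both PRL-3 symbols are below both VT symbols for Hsp90b1, Dnajb11, Calr, Manf and Creld2, and above them for Dnajb9, Ero1a and Atf6.

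A companion list of 16 other ER folding genes, outside the rule, showed a lower mean in PRL-3 for 12 (75%, against 46.6% of all genes tested), and both PRL-3 values under both VT values for 10 (62.5%, against 18.0% of all genes tested). For all genes with a mean FPKM of at least 50 these shares were 58.5% and 24.2%. Of the 16 listed genes, 5 had an unadjusted limma p under 0.05 (31.2%, against 9.51% of all genes tested) and 0 an adjusted p under 0.05. The median log2 difference was -0.14, and -0.17 without PRL-3 replicate 1. Calr, the lectin chaperone calreticulin, was at 410.53 and 453.26 FPKM with PRL-3 exosomes and at 562.31 and 585.45 with VT exosomes (log2 difference -0.41, SE 0.11, limma adjusted p = 0.47). Creld2 was at 64.61 and 62.35 against 79.26 and 89.15 (-0.40, SE 0.11, limma adjusted p = 0.46), and Manf, a secreted ER stress protein, was at 242.32 and 271.71 against 326.39 and 335.40 (-0.37, SE 0.11, limma adjusted p = 0.49). In each of these genes the gap between the groups exceeded the gap within them. Among the 3 genes with both PRL-3 libraries above were Ero1a, an oxidase that recharges protein disulfide isomerase and a known hypoxia target (253.33 and 201.79 against 189.44 and 173.46), and Atf6 (53.53 and 49.80 against 44.29 and 43.38). Xbp1 was at 99.05 and 75.37 against 74.79 and 76.97, with overlap.

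The sums of some marker lists differed between the groups alongside these genes. The 7 macrophage markers summed to 7908 and 8018 FPKM with PRL-3 exosomes and to 9035 and 9096 with VT exosomes. Lyz2 made up most of that sum, at 5916 and 5988 against 6822 and 6831. Without overlap, 2 of the 7 markers were lower (28.6%, against 18.0% of all genes tested). Fcgr1 alone was higher without overlap (14.3%, against 24.3%), and Adgre1, Csf1r, Cd68 and Itgam overlapped. The 12 resident Kupffer cell markers summed to 3.86 and 2.93 against 5.83 and 5.38, with 6 at 0 throughout. The 8 stellate cell and fibroblast markers summed to 13.1 and 10.5 against 7.09 and 6.43, with 2 of 3 tested genes above without overlap (66.7%, against 24.3% of all genes tested). The collagen genes Col1a1, Col1a2 and Col3a1, below the filter, were at 0.34 to 0.86 FPKM in the PRL-3 libraries and at 0 to 0.03 in the VT libraries, and Lrat was listed at 0 in every library. The 7 genes of cell stress and the immediate early response summed to 513 and 484 against 478 and 429. Without overlap, 0 of these 7 genes were higher and 1 was lower (14.3%, against 18.0% of all genes tested). Atf3, the strongest of them, overlapped, at 228.42 and 150.12 against 177.34 and 145.37. The part of these lists in the ER result was not tested, and in bulk RNA fewer cells of a type and less RNA per cell cannot be told apart.

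The promoters of the ER genes are shown because the members with the ER stress response element included Hsp90b1 and Dnajc3, both lower in PRL-3, and Hspa5. Dnajc3, which encodes the HSP40 protein p58IPK, was chosen for display after its values were seen, at 16.64 and 17.22 FPKM against 19.18 and 22.06 (log2 difference -0.27, SE 0.11, limma adjusted p = 0.54). The element was searched as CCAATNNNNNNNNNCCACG on both strands of the 250 bases before the RefSeq start. It occurred in 35 of 27025 genes (0.13%) and in 3 of 67 members. The stretches are RefSeq GRCm38.p6 sequences on the strand of the gene, for Hsp90b1 at chr10:86705524-86705664 (minus strand, upstream of the annotated transcripts), Dnajc3 at chr14:118937812-118937861 (plus strand, upstream of the annotated transcripts) and Hspa5 at chr2:34772020-34772049 (plus strand, inside an annotated Hspa5 exon), and the capitals mark the fixed letters of the element, which in Hsp90b1 occurs on both strands.
Hsp90b1: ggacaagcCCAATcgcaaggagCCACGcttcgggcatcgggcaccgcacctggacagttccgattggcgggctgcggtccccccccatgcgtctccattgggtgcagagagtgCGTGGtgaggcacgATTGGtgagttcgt
Dnajc3: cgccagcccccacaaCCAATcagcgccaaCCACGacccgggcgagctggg
Hspa5: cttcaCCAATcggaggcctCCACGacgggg

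The element lay from -212 to -194 and from -107 to -89 of the start of Hsp90b1, from -105 to -87 of Dnajc3 and from -65 to -47 of Hspa5. It was also present before 5 of the 12 other ER folding genes with a RefSeq sequence (Pdia6, Calr, Canx, Creld2 and Ero1b), all 5 with both PRL-3 values under both VT values. Of the 7 genes of that list without it, 4 (Pdia3, Pdia4, P4hb and Sdf2l1) also had both PRL-3 values under both VT values, so this order was found with and without the element. Over all genes, 12 with the ER stress response element were tested, and these included the 3 members and the 5 listed genes named above. Of these 12, 8 were below and 1 above, with a median log2 difference of -0.21. Hsp90b1, Dnajc3 and the 5 listed genes were among these 8, so the count is not separate from the lists above. For the heat shock element GAANNTTC, 525 genes with it were tested, 113 were below and 125 above, with a median of 0.01. Of all 12193 genes tested, 2189 (18.0%) were below and 2962 (24.3%) above, with a median of 0.02. A part of either element in these differences was not tested.

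The mitochondrial chaperones were close to equal in sum, at 898 and 1027 FPKM with PRL-3 exosomes and 958 and 981 with VT exosomes. Hspa9, the mitochondrial HSP70 mortalin, was at 356.31 and 359.83 against 334.91 and 337.62. Both PRL-3 values were higher, by 6.48% in the mean (log2 difference 0.09, SE 0.10, limma adjusted p = 0.81), and the difference stayed between 0.07 and 0.12 under every alternative tried. Hspd1, which encodes HSP60, was at 271.77 and 329.87 against 318.25 and 323.08. Hspe1, its lid HSP10, was at 131.77 and 189.70 against 162.00 and 178.43. In both genes PRL-3 replicate 1 was the lowest library and PRL-3 replicate 2 the highest, and the ratio of Hspe1 to Hspd1 was 0.485 and 0.575 with PRL-3 exosomes and 0.509 and 0.552 with VT exosomes.

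Hspd1 and Hspe1 lie head to head on chromosome 1 and their annotated exons overlap by 112 bases on opposite strands. The library protocol does not say whether strand was marked, so reads from the overlap may have been counted for either gene. Their shared stretch is shown because it holds a heat shock element of 4 units in a row, at chr1:55088056-55088085 (RefSeq, GRCm38.p6, strand of Hspe1, inside an annotated Hspd1 exon), with the fixed letters of the units in capitals.
Hspe1: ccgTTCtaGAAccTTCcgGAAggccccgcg

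An element of 3 units, in which GAA and TTC alternate with NN between neighbours, searched on both strands, contains the shorter one and was found before 0.514% of all genes and before 3 members, Hspd1, Hspe1 and Dnajb6. Hspd1 and Hspe1 had log2 differences of -0.10 (SE 0.13) and -0.10 (SE 0.18), which became 0.04 and 0.16 without PRL-3 replicate 1.

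Dnaja3, the J-domain partner of Hspa9 also called Tid1, was the mitochondrial member with an unadjusted p under 0.05. It was at 43.20 and 40.53 FPKM with PRL-3 exosomes and at 33.77 and 34.44 with VT exosomes, or 123% of the VT mean (log2 difference 0.29, SE 0.10, limma adjusted p = 0.50). The gap between the groups was larger than that within either, and the difference was 0.24 to 0.33 when any 1 library was left out. The gene spans chr16:4639989-4707695 (GRCm38), and its exons overlap those of Coro7 by 153 bases on the opposite strand and those of Vasn by 160 bases on the same strand, so its value may hold reads of these genes. The companion list of 13 other mitochondrial protein quality control genes had 0 genes called and 0 with an unadjusted p under 0.05, with a median log2 difference of -0.01. Both PRL-3 libraries were above both VT libraries for 4 of the 13 (30.8%, near the 24.3% of all genes tested), among them the protease gene Lonp1 (134.70 and 107.65 against 100.94 and 94.01, log2 difference 0.30, SE 0.14).

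**Figure D4:**
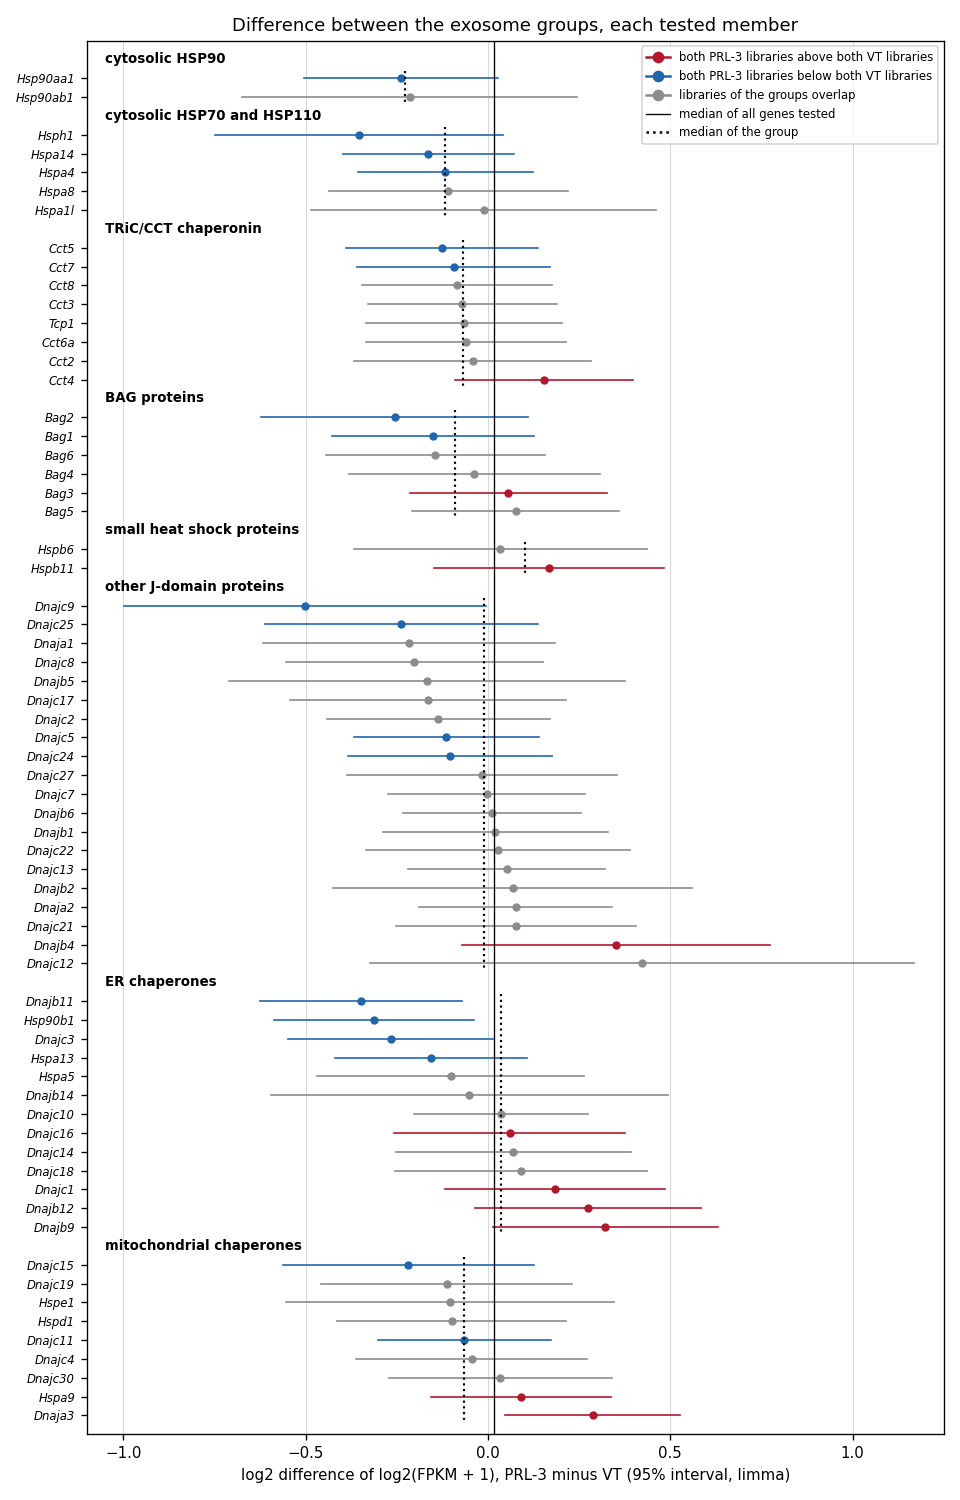
Difference between the groups (PRL-3 minus VT, log2(FPKM + 1) scale) of the 65 tested members with 95% limma intervals, coloured by whether both PRL-3 libraries were above (red, 10 members) or below (blue, 18 members) both VT libraries or overlapped them (grey). The dotted lines are group medians, from -0.23 for the cytosolic HSP90 pair to 0.10 for the small heat shock proteins, and the solid line is the median of all genes tested (0.02). The ER chaperones extend to both sides, from -0.35 to 0.32.

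Side by side, the medians of the log2 difference were -0.23 for cytosolic HSP90 (2 tested, with -0.06 without PRL-3 replicate 1 and -0.40 without PRL-3 replicate 2), -0.12 for cytosolic HSP70 and HSP110 (5 tested), -0.07 for TRiC/CCT (8 tested), -0.06 for the mitochondrial chaperones (9 tested) and 0.04 for the ER chaperones (13 tested). The summed FPKM gave another order. The ER chaperones summed to 1284 and 1192 with PRL-3 exosomes and 1362 and 1409 with VT exosomes, a decrease of the mean by 10.6% without overlap. With each library scaled to the same sum they were at 1901 and 1642 against 1903 and 1994. PRL-3 replicate 1 was then barely below VT replicate 1. The abundant Hspa5 and Hsp90b1 weigh more in that sum than the weakly expressed members that were higher. Hspa5 itself overlapped between the groups, at 629.79 and 486.80 against 580.65 and 608.48. The cytosolic HSP70, HSP110 and HSP90 genes together summed to 1457 and 1842 against 1824 and 1896, where the mean dropped by 11.3%, and by 0.98% without PRL-3 replicate 1. The mitochondrial sum dropped by 0.708%, and was higher by 5.95% without that library. The ER sum dropped by 14.0% without it. Without PRL-3 replicate 2 the cytosolic sum dropped by 21.7%, the mitochondrial sum dropped by 7.37% and the ER sum dropped by 7.30%. The size of each change, and the place of the ER sum among the compartments, thus depended on which PRL-3 library was used. With either PRL-3 library alone the ER and cytosolic sums were under the VT mean, and the cytosolic change lay below the mitochondrial one. These changes are of FPKM sums. With each library scaled to the same sum, the cytosolic HSP90 pair was at 1271 and 1586 against 1602 and 1653, without overlap. The cytosolic HSP70 and HSP110 genes overlapped, at 886 and 952 against 948 and 1030. The mitochondrial chaperones were at 1329 and 1416 against 1338 and 1388, with overlap and a higher mean in PRL-3. Scaling thus changed the separation of the HSP90 pair and the sign of the mitochondrial change.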

How the data were processed

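RNA from 4 libraries of mouse Kupffer cells was sequenced, 2 with MC38-PRL-3 and 2 with MC38-VT exosomes. Per the labels, cDNA was made from bead-captured mRNA with random hexamers. For each library the authors deposited a table of rounded gene values, which were read as FPKM because the column sums differed (675475 to 725599) and low values fell with gene length. The unit itself is not named in any source. The submitters' processing notes name RSEM, DESeq2 and mm10 without version or role, and neither aligner nor annotation is given in the sources used here. Of the 82 members, 19 carried an identifier of an assembled locus. Depth was fitted from low values, of which 89.8% to 91.8% were whole fragments within 0.2, so depth is approximate.

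Genes with an FPKM of at least 1 in at least 2 libraries were tested with limma 3.58.1 in R 4.3.3 on log2(FPKM + 1), with a mean-variance trend, robust empirical Bayes and Benjamini-Hochberg adjustment over all genes tested. The script was tested on simulated data. With 2 libraries per group, an exact permutation test of a single value cannot go below p = 0.33 (two-sided). Positions and exons came from GENCODE M21 (GRCm38), which matched all 82 members, and 32 members overlap an exon of another gene, 29 of them on the opposite strand. Promoters came from RefSeq (GRCm38.p6).

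Members, lists and motifs were chosen with earlier results of these data known. Named genes were, per group, the 4 of highest mean FPKM, those with an unadjusted p under 0.05, and a fixed set of well-known chaperones with Hsf1. Companion-list genes and those said to be named after their values were seen fall outside this rule. The 14 alternatives were pseudocounts of 0.1 and 0.5, no filter, a mean FPKM of at least 5, 3 scalings, no trend, no robust fit, a replicate block, and each library left out. The filter was set on all 4 libraries before one was left out.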

Additional observations from a re-analysis of the deposited data

How the results depend on the processing

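Under the 14 alternatives, 0 members were called in any fit, and 19 of the 31 named tested members kept the sign of their difference throughout. The lowest limma adjusted p of any member over the alternatives was 0.08, without PRL-3 replicate 2. The number of genes called over all genes tested was 6, and became 1 with a pseudocount of 0.1 and with a mean FPKM of at least 5, 0 with no filter and with no robust fit, 10 with no trend, and 0 to 23 when a library was left out. The cause of these changes was not tested. With a library left out the count of members at an unadjusted p under 0.05 was 0 to 19, against 5 with all libraries, while the share of all genes moved alongside, from 2.89% to 21.0%, against 9.51%.

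The medians of all members and of several groups moved by more than their replicate spread. A mean FPKM of at least 5 gave -0.144 for the BAG genes, 0.048 for the ER chaperones, -0.054 for the other J-domain genes and 0.167 for the small heat shock proteins, from fewer genes. The small heat shock proteins gave 0.035 with no filter and 0.071 with quantile normalization. The ER median was 0.016 with median of ratios scaling, 0.012 with quantile normalization and 0.058 with each library scaled to 1e6. With a library left out, the medians ranged from -0.103 to -0.005 for all members, -0.070 to -0.048 for BAG, -0.003 to 0.060 for ER, -0.103 to 0.041 for the mitochondrial, -0.191 to -0.108 for the HSP70 and HSP110, -0.40 to -0.06 for the HSP90, -0.13 to -0.02 for the TRiC/CCT and -0.052 to -0.006 for the other J-domain genes. Members with both groups apart made up 21.5% to 30.8% above and 35.4% to 55.4% below, against 34.2% to 44.0% and 28.8% to 39.5% of all genes in the same fits, where a lone library makes separation easier. Median of ratios scaling gave 10.8% above and 35.4% below among the members, against 15.4% and 27.7% in the main setting, and all genes moved from 24.3% and 18.0% to 21.5% and 21.1%.

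A replicate block, which treats equal replicate numbers as pairs, gave 15 genes called, of which 0 were members. The labels do not say that equal numbers mark a shared culture, and deviations from the group means of same-numbered libraries had a correlation of -0.06 over 12193 genes, so the number was not used as a pairing.

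With 2 libraries per group, the 95% intervals of single members were wide, and differences such as that of Hsp90ab1 (-0.67 to 0.24) were not resolved.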
